A study of Mus musculus with 6 samples.

Results

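The genes described here are 33 named genes of the cell division cycle and of DNA replication, measured in whole mouse liver with and without profilin 2. They were found by symbol among the array rows annotated with exactly 1 gene, keeping for each gene the row with the highest mean over all 6 arrays, and 31 of the 33 were found among 22180 genes. Ccne2 has a row only together with Ints8, and Ccnb1 has no row with its symbol among those used here, so neither was analysed here. By their known time of action the 31 were placed in G1 (7 genes), in S phase (12 genes) and in G2 and mitosis, written G2/M (12 genes).

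The series compares livers of Pfn2-/- mice (3 arrays) with livers of wild-type mice (3 arrays), all of strain C57BL/6. Replicates 1, 2 and 3 of both genotypes came from animals 9, 8.5 and 8 months old, no treatment was given, and the labels name them independent biological samples. The sex of the animals and the design of the Pfn2 allele are unknown here. Total RNA was hybridised to Affymetrix arrays, and every value below is an RMA expression value on the log2 scale, on which a difference of 1 is a change by a factor of 2. Differences are Pfn2-/- minus wild type with the standard error (SE) of a limma fit over all genes, and an adjusted p is that of Benjamini and Hochberg over all genes.

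Most hepatocytes of an adult liver rest outside the cycle, in G0, and enter it again after tissue loss or injury. Entry is driven by D-type cyclins with Cdk4 and then by cyclin E with Cdk2, which inactivate the retinoblastoma proteins and release E2F factors. These switch on the genes of DNA synthesis, and a later wave of transcription supplies the cyclins, kinases and checkpoint proteins of mitosis. In resting cells many genes of both waves are held down by the DREAM complex, which binds promoters through a short element called CHR and through E2F sites. Hepatocytes can also replicate DNA without dividing, which makes many of them polyploid.

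Promoter sequence, which was not used to choose the genes, set the G2/M group apart by the CHR element. The shares below were not tested. Promoter windows of 300 bases, 250 before and 50 after the annotated start, were in the RefSeq-based table (GRCm38.p6) for 26 of the 31 genes, and the first window listed was taken for each. The CHR element (TTTGAA or TTCGAA) was in 9 of 10 G2/M windows, 3 of 11 S windows and 0 of 5 G1 windows, against 19.4% of 27025 genes in the table. The G2/M window without it was that of Birc5. An E2F element (TTTCCCGC, TTTGGCGC, TTTCGCGC or TTTGCCGC) was in 5 of 11 S windows, 1 of 10 G2/M windows and 1 of 5 G1 windows, against 2.32% of all genes. The CCAAT box, bound by the factor NF-Y, was in 20 of the 26 windows, against 37.9% of all genes. It was in 9 of 10 G2/M windows and 10 of 11 S windows, but in 1 of 5 G1 windows. A second window of the G1 gene Ccnd3, not counted here, also holds it. All elements were searched on both strands, and none of the 3 kinds holds the letters of another. A match is a description of the letters and not a measured binding site. Only these exact letters were searched, so a window without a match may still hold a variant of an element.

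The 250 bases before the start are shown for 7 of the genes, 5′ to 3′ on the strand of the gene, with the matched elements in capitals. Cdk1, the kinase that drives mitosis, Ccnb2, which encodes its partner cyclin B2, and the proliferation marker gene Mki67 show the CHR element. A second CHR match of Ccnb2 lies just after the start, outside the bases shown. In Cdk1 the CCAAT box appears only as ATTGG, its reading on the opposite strand, and in Mki67 it appears both ways. The TTTCGCGC in capitals in Cdk1 is an E2F match.
Cdk1 (GRCm38.p6 chr10:69352913-69353162, minus strand): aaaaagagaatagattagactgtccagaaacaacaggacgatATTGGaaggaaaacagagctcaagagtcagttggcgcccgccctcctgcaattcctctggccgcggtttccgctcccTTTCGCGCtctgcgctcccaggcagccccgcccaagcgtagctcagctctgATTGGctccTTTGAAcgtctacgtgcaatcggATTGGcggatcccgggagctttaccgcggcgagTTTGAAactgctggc
Ccnb2 (GRCm38.p6 chr9:70421555-70421804, minus strand): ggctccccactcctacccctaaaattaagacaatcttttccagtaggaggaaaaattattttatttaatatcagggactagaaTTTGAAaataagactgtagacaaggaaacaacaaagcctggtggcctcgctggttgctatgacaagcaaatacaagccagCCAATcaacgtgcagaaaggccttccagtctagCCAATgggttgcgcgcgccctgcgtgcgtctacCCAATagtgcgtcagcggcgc
Mki67 (GRCm38.p6 chr7:135716380-135716629, minus strand): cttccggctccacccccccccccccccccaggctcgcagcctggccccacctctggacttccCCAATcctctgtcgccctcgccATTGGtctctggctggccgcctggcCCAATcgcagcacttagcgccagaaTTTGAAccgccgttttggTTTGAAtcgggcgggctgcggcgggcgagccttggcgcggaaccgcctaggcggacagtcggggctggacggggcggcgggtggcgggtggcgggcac

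Mcm5 and Mcm6, subunits of the replicative helicase, show the E2F element, in both genes as overlapping matches on the 2 strands.
Mcm5 (GRCm38.p6 chr8:75109259-75109508, plus strand): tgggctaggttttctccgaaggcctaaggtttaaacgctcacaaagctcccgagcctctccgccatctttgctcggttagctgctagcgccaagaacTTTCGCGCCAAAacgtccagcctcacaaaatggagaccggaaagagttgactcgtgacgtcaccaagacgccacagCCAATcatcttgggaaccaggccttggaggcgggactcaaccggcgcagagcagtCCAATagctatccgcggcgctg
Mcm6 (GRCm38.p6 chr1:128359706-128359955, minus strand): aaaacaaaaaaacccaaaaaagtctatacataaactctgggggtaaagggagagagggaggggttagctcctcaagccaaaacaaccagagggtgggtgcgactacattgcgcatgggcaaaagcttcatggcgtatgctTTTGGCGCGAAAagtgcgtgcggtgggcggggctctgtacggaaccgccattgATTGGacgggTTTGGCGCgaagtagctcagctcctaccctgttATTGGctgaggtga

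Rrm1 and Rrm2, the subunits of ribonucleotide reductase, are shown because they are among the 3 genes with the smallest p below. In both windows the CCAAT box is the only match to the searched letters.
Rrm1 (GRCm38.p6 chr7:102441445-102441694, plus strand): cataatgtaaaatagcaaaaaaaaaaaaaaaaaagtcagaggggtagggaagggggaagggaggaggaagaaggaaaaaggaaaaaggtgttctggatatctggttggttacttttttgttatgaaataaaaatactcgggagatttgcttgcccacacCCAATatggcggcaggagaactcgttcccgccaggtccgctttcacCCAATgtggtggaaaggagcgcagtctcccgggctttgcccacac
Rrm2 (GRCm38.p6 chr12:24708004-24708253, plus strand): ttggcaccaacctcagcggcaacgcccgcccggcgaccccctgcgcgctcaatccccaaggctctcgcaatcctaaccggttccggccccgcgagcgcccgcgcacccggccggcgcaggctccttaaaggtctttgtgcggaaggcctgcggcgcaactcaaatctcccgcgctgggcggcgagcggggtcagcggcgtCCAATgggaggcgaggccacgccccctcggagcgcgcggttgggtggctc

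By array signal, the G1 genes stood highest in these livers and the G2/M genes lowest. Probes differ in how well they bind, so the place of a row among all rows describes its brightness and does not rank transcripts against each other. All 7 G1 genes had a mean over the 6 arrays above the median of all genes (4.72), as had 9 of 12 S genes and 2 of 12 G2/M genes, Ccnb2 and Mki67. The median percentile among all genes was 71.0 for G1, 56.4 for S and 40.7 for G2/M. As a measure of background, 1390 olfactory and vomeronasal receptor genes, which liver is not known to use, had a median of 2.90 and a 95th percentile of 4.25. All G1 and S genes and 8 of 12 G2/M genes lay above that percentile, against 62.0% of all genes. The other 4 were the survivin gene Birc5 (3.60), the topoisomerase gene Top2a (3.67) and the spindle checkpoint kinase genes Bub1 (3.17) and Bub1b (4.06). A fall or a small rise in these 4 rows could hardly show, since their signal cannot be told from that of the receptor genes.

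**Figure D1:**
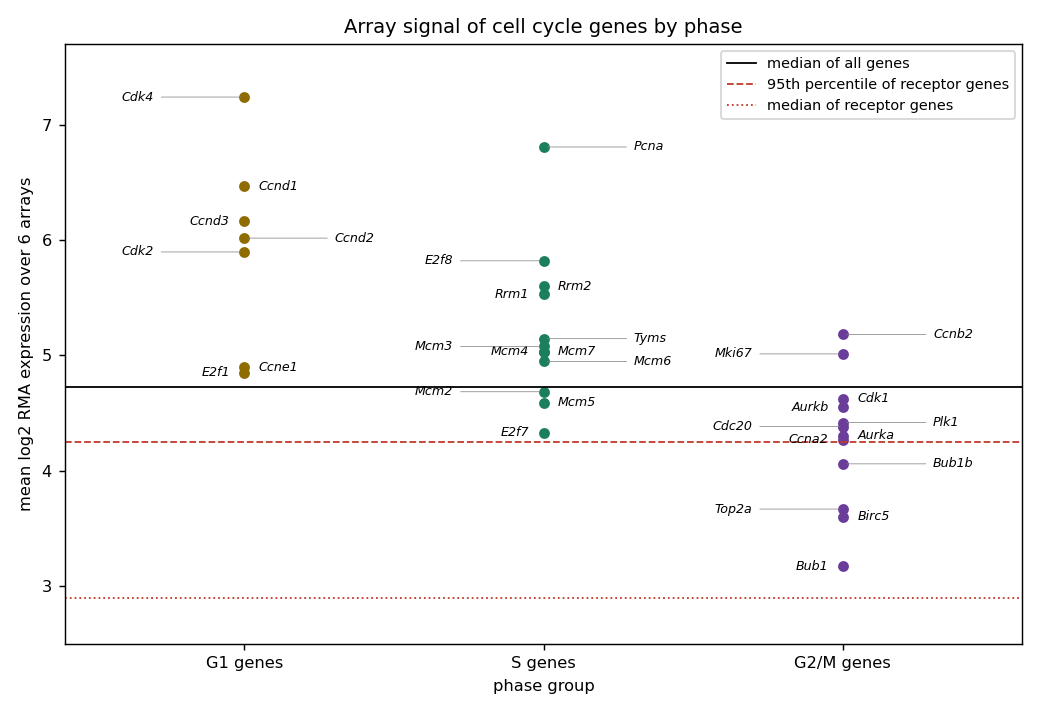
Mean log2 RMA expression over the 6 arrays (vertical axis) of each of the 31 genes, by phase group (horizontal axis). The solid line is the median of all genes (4.72), and the dashed and dotted lines are the 95th percentile (4.25) and the median (2.90) of the receptor genes. All G1 genes lie above the solid line, and 4 G2/M genes lie below the dashed line.

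The tissue and the genotype labels were checked in the same arrays. The hepatocyte genes Alb (12.93 to 12.97 in Pfn2-/- and 12.98 to 13.00 in wild type) and Cps1 (12.32 to 12.46 in Pfn2-/- and 12.46 to 12.63 in wild type) were among the brightest rows. The Pfn2 row lay at 3.88, 3.81 and 3.93 in Pfn2-/- livers and at 4.02, 3.85 and 4.09 in wild-type livers, dim in both, and the part of the transcript that it covers is not given, so it cannot check the labels. Arrays correlated across rows at 0.9795 to 0.988 within a genotype and at 0.9795 to 0.9864 between genotypes.

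No gene of the cycle passed the test between the genotypes. Of 31 genes 0 had an adjusted p under 0.05 (smallest adjusted p = 0.838), and the share of all 22180 genes that did was 0%. At an unadjusted p under 0.05, used here as a description, 3 of the 31 were lower in Pfn2-/- (Ccnd1, Rrm2 and Rrm1), where 2.62% of all genes were, and 0 were higher, where 2.67% of all genes were. The sign was below 0 in 26 of the 31 genes, in 7 of 7 G1, 10 of 12 S and 9 of 12 G2/M genes, and in 49.9% of all genes. It was also below 0 in 7 of 8 hepatocyte markers and in 30 of 46 markers of other liver cells. The median difference was -0.17 for G1, -0.17 for S and -0.11 for G2/M, against 0 for all genes. These genes share arrays and vary together, so the counts are not those of independent genes. The groups did not overlap for Ccnd1 and Pcna, both lower in Pfn2-/-, where 4.76% of all genes were lower without overlap, and for no gene in the other direction, where 5.09% were.

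**Figure D2:**
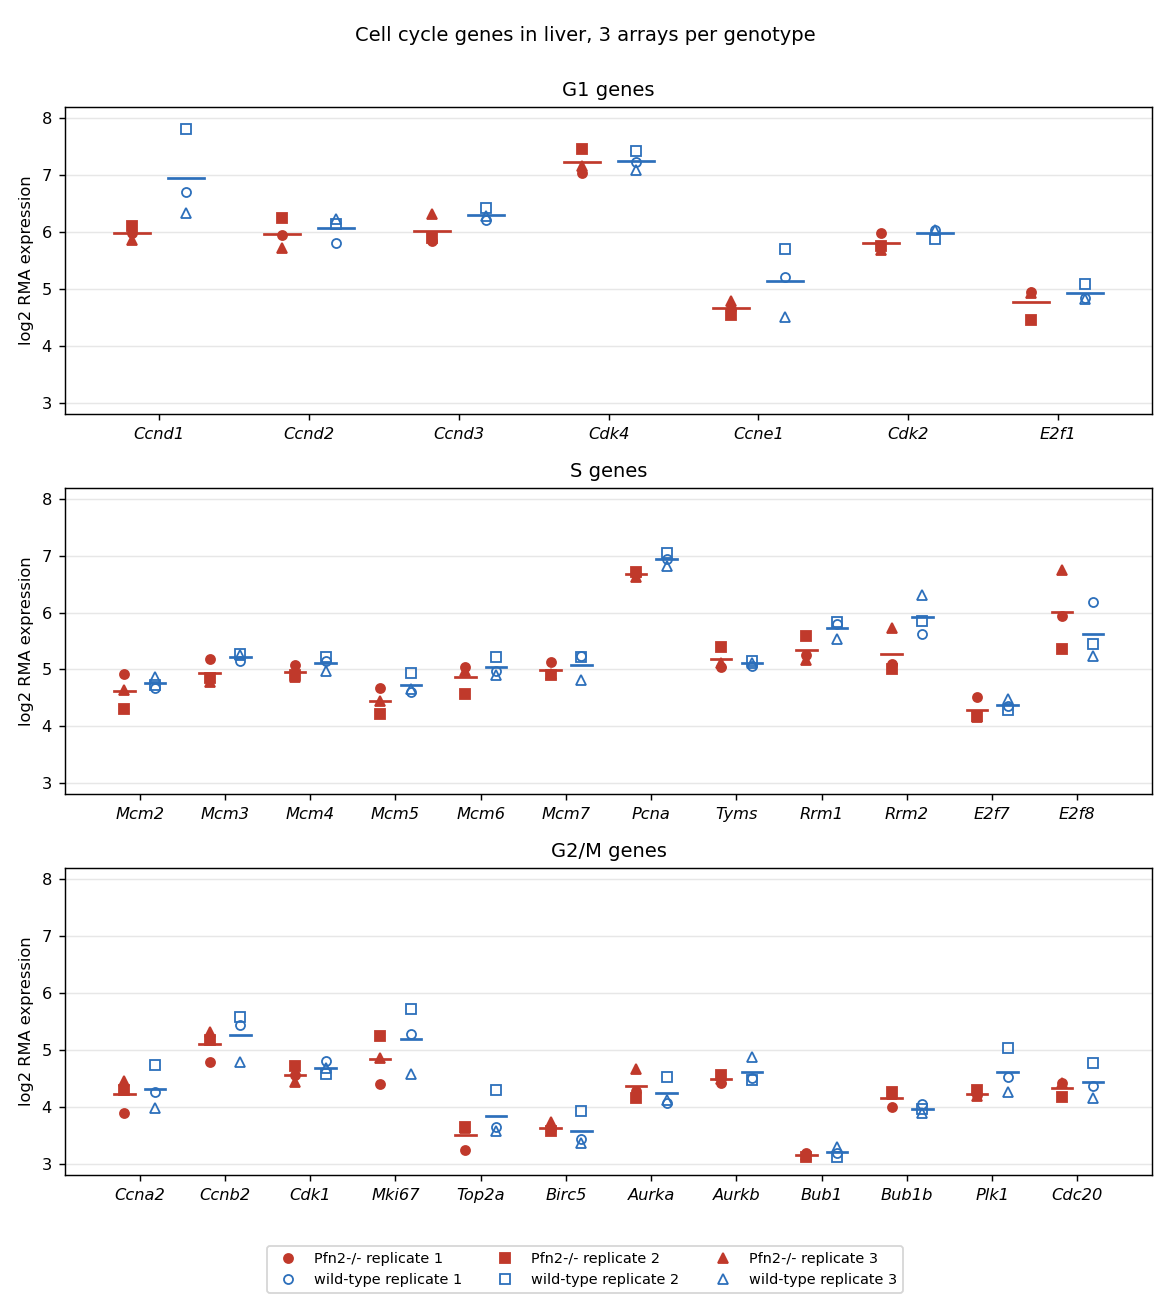
Log2 RMA expression (vertical axis) of the 31 genes (horizontal axis) in the 3 panels G1, S and G2/M. Filled red symbols left of each name are the 3 Pfn2-/- arrays, open blue symbols right of it the 3 wild-type arrays, and the marker shape gives the replicate. Short lines are group means. For Ccnd1 all 3 red symbols lie below all 3 blue ones, and wild-type replicate 2 is the highest of the 6 arrays for most G2/M genes.

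Among the G1 genes, the cyclin D1 gene Ccnd1 differed most between the genotypes. Cyclin D1 activates Cdk4 in response to mitogens and is the D-type cyclin known to rise when hepatocytes enter the cycle. Ccnd1 lay at 5.99, 6.10 and 5.86 in Pfn2-/- livers, against 6.71, 7.81 and 6.33 in wild-type livers. The 3 Pfn2-/- values were close together and all below the lowest wild-type value, while the wild-type values were spread over more than 1 log2 unit. The difference was -0.97 (SE 0.31, 95% confidence interval -1.66 to -0.28, unadjusted p = 0.011, adjusted p = 0.838), 1.95-fold lower in Pfn2-/-. Without wild-type replicate 2, the highest array, it was -0.54, and the unadjusted p stayed under 0.05 whichever of the 6 arrays was left out.

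The other D-type cyclins did not show a difference of that size. Ccnd3, the cyclin D of most differentiated tissues, lay at 5.85, 5.89 and 6.32 in Pfn2-/- livers, against 6.21, 6.42 and 6.28 in wild-type livers. Its groups overlapped through Pfn2-/- replicate 3, with a difference of -0.28 (SE 0.15, adjusted p = 0.943), and of -0.43 without that array. Ccnd2 lay at 5.95, 6.24 and 5.72 in Pfn2-/- livers and at 5.81, 6.15 and 6.23 in wild-type livers, a difference of -0.09 (95% confidence interval -0.47 to 0.28). Whether Ccnd1 differed more than Ccnd2 or Ccnd3 was not tested.

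The kinases of G1 differed little. Cdk4, the partner of the D-type cyclins, lay at 7.04, 7.47 and 7.17 in Pfn2-/- livers and at 7.23, 7.43 and 7.10 in wild-type livers (-0.03, 95% confidence interval -0.36 to 0.31). Cdk2, the partner of the E- and A-type cyclins, lay at 5.99, 5.75 and 5.69 in Pfn2-/- livers and at 6.04, 5.87 and 6.04 in wild-type livers (-0.17, SE 0.13). The intervals of both leave room for a fall of about the size seen in Ccnd3, and not for that of Ccnd1.

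The cyclin E1 gene Ccne1, an E2F target that acts with Cdk2 at the start of S phase, had the second largest difference of the G1 genes. It lay at 4.64, 4.54 and 4.79 in Pfn2-/- livers, against 5.21, 5.71 and 4.50 in wild-type livers. The Pfn2-/- arrays were all dim and close together, and wild-type replicate 3 lay with them, apart from the other wild-type arrays. The difference was -0.48 (SE 0.26, adjusted p = 0.943). It was -0.20 without wild-type replicate 2 and -0.80 without wild-type replicate 3, so either array moved it by more than 1.5 times. The gene of E2f1 itself, the activator of this program, differed by -0.14 (SE 0.16), with 4.95, 4.46 and 4.92 in Pfn2-/- livers and 4.84, 5.09 and 4.83 in wild-type livers.

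Among the S phase genes, both subunits of ribonucleotide reductase were lower in Pfn2-/- at an unadjusted p under 0.05, and neither passed over all genes. This enzyme makes the deoxynucleotides for DNA synthesis. Its regulatory subunit gene Rrm2, which is tied to S phase, lay at 5.10, 5.0 and 5.72 in Pfn2-/- livers, against 5.63, 5.85 and 6.30 in wild-type livers. Only Pfn2-/- replicate 3 reached into the wild-type range. The difference was -0.65 (SE 0.22, 95% confidence interval -1.15 to -0.16, unadjusted p = 0.015, adjusted p = 0.895), 1.57-fold lower in Pfn2-/-. A second Rrm2 row was dim in all arrays, at 3.15, 3.06 and 2.85 in Pfn2-/- livers and 3.08, 2.94 and 2.98 in wild-type livers, and showed no such order. With the mean of both rows the difference was -0.32.

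The catalytic subunit gene Rrm1 lay at 5.26, 5.59 and 5.16 in Pfn2-/- livers, against 5.80, 5.84 and 5.53 in wild-type livers. The groups overlapped only at Pfn2-/- replicate 2 and wild-type replicate 3. The difference was -0.39 (SE 0.15, 95% confidence interval -0.73 to -0.05, unadjusted p = 0.0296, adjusted p = 0.915). Leaving out single arrays gave unadjusted p-values of up to 0.102 for Rrm1 and up to 0.0596 for Rrm2. The thymidylate synthase gene Tyms, which supplies the thymidine nucleotide, lay at 5.05, 5.39 and 5.11 in Pfn2-/- livers and at 5.06, 5.14 and 5.12 in wild-type livers, a difference of 0.08 (SE 0.13).

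The sliding clamp gene Pcna, whose protein holds polymerases on DNA and also serves in repair, lay at 6.68, 6.72 and 6.63 in Pfn2-/- livers, against 6.95, 7.04 and 6.82 in wild-type livers. The Pfn2-/- values were close together and lay below all wild-type values. The difference was small, at -0.26 (SE 0.12, 95% confidence interval -0.53 to 0.01, adjusted p = 0.92).

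The helicase genes Mcm2 to Mcm7, whose proteins form a ring of 6 subunits that is loaded on DNA in G1 and unwinds it in S phase, differed by little and all below 0. The 6 differences ran from -0.29 for Mcm3 (SE 0.14) and -0.28 for Mcm5 (SE 0.15) to -0.10 for Mcm7 (SE 0.15), with a median of -0.17 and 0 of 6 at an unadjusted p under 0.05. Mcm3 lay at 5.19, 4.84 and 4.77 in Pfn2-/- livers, against 5.15, 5.27 and 5.25 in wild-type livers. Mcm5 lay at 4.68, 4.22 and 4.45 in Pfn2-/- livers, against 4.60, 4.93 and 4.65 in wild-type livers. In both genes Pfn2-/- replicate 1 lay within the wild-type range and the other Pfn2-/- arrays below it. The mean of the 6 genes, each centred on its own mean, was 0.11, -0.27 and -0.12 in Pfn2-/- livers and 0.07, 0.20 and 0.01 in wild-type livers, so Pfn2-/- replicate 1 lay among the wild-type arrays.

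The atypical repressors E2f7 and E2f8, which damp E2F targets late in S phase and are known for their part in liver polyploidy, did not share the sign of their difference. E2f8 had the largest difference above 0 of the 31 genes, at 0.39 (SE 0.34, 95% confidence interval -0.36 to 1.14, adjusted p = 0.958). It lay at 5.94, 5.36 and 6.74 in Pfn2-/- livers and at 6.19, 5.45 and 5.24 in wild-type livers. Both groups were widely spread and overlapped, and without Pfn2-/- replicate 3 the difference was 0.02. It was 0.71 without Pfn2-/- replicate 2, 0.67 without wild-type replicate 1 and 0.19 without wild-type replicate 3. E2f7 was dimmer and flat, at 4.51, 4.18 and 4.17 in Pfn2-/- livers and 4.36, 4.28 and 4.48 in wild-type livers (-0.09, SE 0.14).

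Among the G2/M genes 0 of 12 had an unadjusted p under 0.05, and the differences ran from -0.38 for Plk1 to 0.19 for Bub1b. The polo-like kinase gene Plk1, which acts at mitotic entry and on the spindle, lay at 4.21, 4.29 and 4.19 in Pfn2-/- livers, against 4.53, 5.04 and 4.25 in wild-type livers. Wild-type replicate 3 lay among the Pfn2-/- arrays, and the difference was -0.38 (SE 0.19, adjusted p = 0.935). Mki67, whose protein coats mitotic chromosomes and marks cycling cells, lay at 4.40, 5.25 and 4.86 in Pfn2-/- livers, against 5.28, 5.72 and 4.57 in wild-type livers (-0.35, SE 0.29). The spread within either genotype exceeded the difference. Without wild-type replicate 2 the difference was -0.16 for Plk1 and -0.09 for Mki67, and without wild-type replicate 3 it was -0.56 and -0.66. That of Mki67 was also -0.14 without Pfn2-/- replicate 1 and -0.56 without Pfn2-/- replicate 2.

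The cyclins and kinase of mitosis had differences smaller than their standard errors. Ccna2, the S and G2 cyclin A2 gene, lay at 3.89, 4.30 and 4.46 in Pfn2-/- livers and at 4.25, 4.73 and 3.97 in wild-type livers (-0.10, SE 0.21). The sign turned without wild-type replicate 2 (0.11) and also without Pfn2-/- replicate 1 (0.06). Ccnb2 lay at 4.79, 5.18 and 5.32 in Pfn2-/- livers and at 5.43, 5.58 and 4.79 in wild-type livers (-0.17, SE 0.22). The difference of Ccnb2 was -0.01 without wild-type replicate 2, -0.02 without Pfn2-/- replicate 1, -0.28 without Pfn2-/- replicate 3 and -0.41 without wild-type replicate 3. Cdk1 lay at 4.55, 4.71 and 4.43 in Pfn2-/- livers and at 4.8, 4.57 and 4.68 in wild-type livers (-0.12, SE 0.13). In all 3 genes the groups overlapped.

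The spindle and chromosome genes went either way by less than 0.4. Top2a, which untangles sister chromatids, differed by -0.33 (SE 0.20), or by -0.10 without wild-type replicate 2 and -0.19 without Pfn2-/- replicate 1. The difference was -0.13 (SE 0.14) for Aurkb, the kinase of the chromosomal passenger complex. Birc5, a partner of Aurkb in that complex, differed by 0.06 (SE 0.16). Aurka, the centrosome kinase gene, differed by 0.13 (SE 0.18), Bub1 by -0.05 (SE 0.12), Bub1b by 0.19 (SE 0.13) and Cdc20, an activator of the anaphase-promoting complex, by -0.10 (SE 0.17). Top2a had only its row of 1 gene analysed, and rows that it shares with Taf1d were left out.

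**Figure D3:**
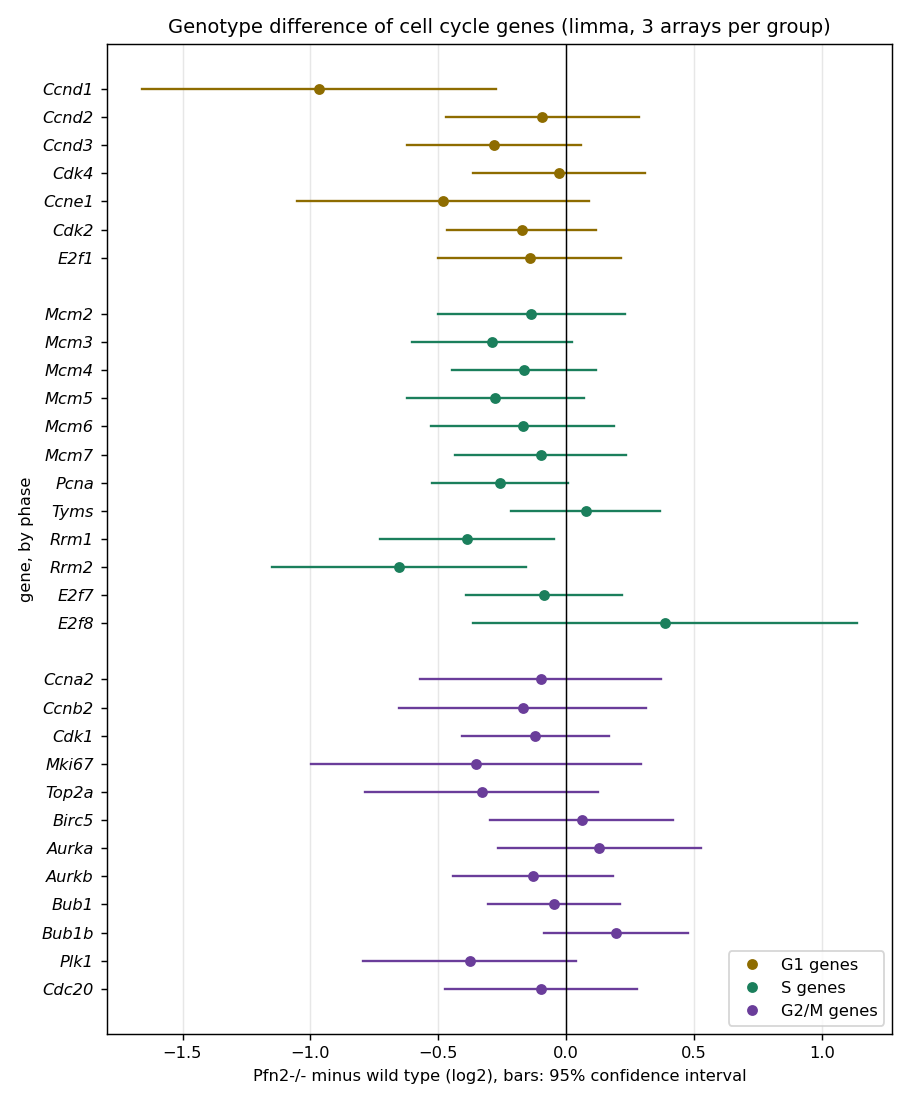
Difference Pfn2-/- minus wild type on the log2 scale (horizontal axis) for each of the 31 genes (vertical axis, grouped by phase), from the limma fit with 3 arrays per group. Points are estimates and bars 95% confidence intervals. The bars of Ccnd1, Rrm1 and Rrm2 lie below 0, and those of the other genes reach or cross it.

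The G2/M genes varied more among wild-type livers than among Pfn2-/- livers, and wild-type replicate 2 was the highest array for many of the 31 genes. The SD over wild-type arrays was the larger in 9 of 12 G2/M genes (median SD 0.14 in Pfn2-/- and 0.31 in wild type). It was the larger in 3 of 12 S genes and in 2 of 7 G1 genes, against 47.1% of all genes. The same held for 21 of 37 mitosis genes outside the 31 and for 35 of 46 markers of liver cells other than hepatocytes. A larger wild-type spread was thus not particular to the G2/M genes. Wild-type replicate 2 held the highest value in 17 of the 31 genes (54.8%), against 16.4% of all genes. It did so in 4 of 7 G1, 6 of 12 S and 7 of 12 G2/M genes. The mean of the centred G2/M genes was -0.19, 0.00 and 0.03 in Pfn2-/- livers and 0.02, 0.29 and -0.14 in wild-type livers, so the groups overlapped. The centred G1 genes lay at -0.16, -0.15 and -0.15 in Pfn2-/- livers and at 0.07, 0.42 and -0.03 in wild-type livers, without overlap. Ccnd1 is among these genes, and its part in the lack of overlap was not tested.

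Markers of several other liver cell types, though not all, stood high in the same array. The highest value was in wild-type replicate 2 for 7 of 7 markers of Kupffer cells and macrophages, 5 of 7 of T and NK cells, 3 of 5 of B and plasma cells, 4 of 6 of endothelial cells and 5 of 8 of hepatocytes. For stellate cells and fibroblasts it was so for 4 of 7 markers. Their centred mean was 0.13 in wild-type replicate 1 and 0.12 in wild-type replicate 2. Of the neutrophil markers 0 of 7 were highest in that array, as were 0 of 2 erythroid markers and 1 of 5 bile duct markers. The mean of the centred Kupffer cell markers was -0.10 to 0.03 in Pfn2-/- livers and -0.28 to 0.44 in wild-type livers, and that of the T and NK cell markers -0.10 to 0.07 in Pfn2-/- livers and -0.18 to 0.39 in wild-type livers. The endothelial markers had means of -0.19 to 0.07 in Pfn2-/- livers and -0.19 to 0.32 in wild-type livers. In that array the means of the neutrophil, erythroid and bile duct markers were the lowest of the 6 arrays, at -0.17, -0.32 and -0.10. In whole liver, fewer cells of a type and less RNA per cell cannot be told apart, and the part of these cells in the differences of the cycle genes was not tested. Without wild-type replicate 2 the median difference was -0.20 for G1, -0.14 for S and -0.05 for G2/M, and 2 genes, Ccnd1 and Rrm2, had an unadjusted p under 0.05.

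**Figure D4:**
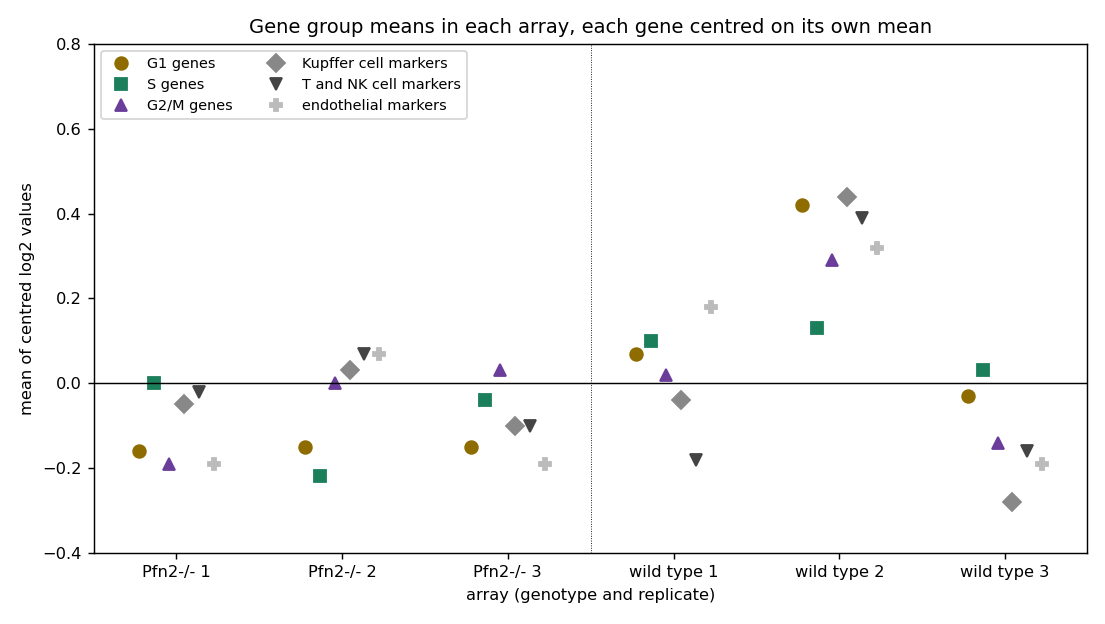
Mean of log2 values, each gene centred on its own mean over the 6 arrays (vertical axis), of 6 gene groups in each array (horizontal axis, Pfn2-/- replicates left and wild-type replicates right of the dotted line). All 6 groups are highest in wild-type replicate 2, the S group at 0.13 there against 0.10 in wild-type replicate 1. The G1 group lies at -0.16 to -0.15 in the 3 Pfn2-/- arrays.

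Other genes of replication and mitosis, listed apart from the 31, gave no call either. Of 37 measured genes of replication origins and forks 0 passed over all genes, 4 were lower and 0 higher at an unadjusted p under 0.05, where 2.62% of all genes were lower and 2.67% higher, and the median difference was 0. The 4 were the chromatin assembly gene Chaf1b (-0.44, SE 0.15), the clamp loader gene Rfc2 (-0.35, SE 0.12), Rpa1, of the single-strand binding protein (-0.32, SE 0.13), and Gmnn, whose protein geminin blocks a new round of licensing (-0.46, SE 0.19). The groups of Gmnn overlapped, and without Pfn2-/- replicate 3 its difference was -0.23. The sign was below 0 in 18 of the 37 replication genes. Of 37 further mitosis genes 0 passed, 3 were lower and 1 higher at an unadjusted p under 0.05, beside the same shares of 2.62% and 2.67% of all genes. Their sign was below 0 in 26 of 37, and the median was -0.08, or -0.02 without wild-type replicate 2. The lower ones were the kinetochore gene Ndc80 (-0.40, SE 0.13), the cytokinesis gene Ect2 (-0.60, SE 0.25) and Cks2, a Cdk-binding protein gene (-0.32, SE 0.13). The paralog of Cks2, Cks1b, was the higher one (0.29, SE 0.13). The groups of Ect2 overlapped, and without Pfn2-/- replicate 2 its difference was -0.31. Of these 37 mitosis genes 20 lay at or below the 95th percentile of the receptor genes, as did 6 of the 37 replication genes. A fall or a small rise in these rows could hardly show.

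Among the brakes on the cycle 0 of 23 measured genes passed over all genes, 4 were lower and 0 higher at an unadjusted p under 0.05, where 2.62% of all genes were lower and 2.67% higher. All 23 lay above the 95th percentile of the receptor genes, as did 62.0% of all genes. Btg2, an antiproliferative gene that responds quickly to stress and mitogens, lay at 5.29, 5.85 and 5.44 in Pfn2-/- livers, against 6.67, 6.75 and 5.78 in wild-type livers. It overlapped only between Pfn2-/- replicate 2 and wild-type replicate 3, and differed by -0.87 (SE 0.25, unadjusted p = 0.00634, adjusted p = 0.789). The stress gene Gadd45b differed by -0.38 (SE 0.13), the Cdk4 inhibitor gene Cdkn2c by -0.34 (SE 0.13) and Lin9, a core subunit of the DREAM complex, by -0.28 (SE 0.12).

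The Cdk inhibitor gene Cdkn1a, a target of p53, turned on 1 array. It lay at 5.27, 5.16 and 8.30 in Pfn2-/- livers and at 6.69, 6.52 and 5.60 in wild-type livers, with the highest and the lowest value both in Pfn2-/-. The difference was -0.03 (SE 0.70), and -1.06 without Pfn2-/- replicate 3, the array that also held the highest E2f8. Cdkn1b, the inhibitor gene linked to rest, differed by 0.07 (SE 0.13), Rb1 by 0.06 (SE 0.14) and the retinoblastoma relative Rbl2, a DREAM subunit of resting cells, by 0.04 (SE 0.16).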

How the data were processed

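Expression was measured in 3 Pfn2-/- and 3 wild-type livers. The authors deposited log2 values from RMA, per the submitters' processing notes, which also name limma. RMA equalises arrays and compresses the differences of dim rows. Rows were named from the platform annotation: 23521 of 34390 had exactly 1 symbol, giving 22180 genes. Arrays carry no depth, so precision is set by how many there are.

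Genotypes were compared in R 4.3.3 with limma 3.58.1 (lmFit and eBayes without trend, genotype as the sole term, two-sided), with Benjamini-Hochberg adjustment over all genes, and the fit was tested on simulated data. Lists got no test. In the count of highest arrays, ties went to Pfn2-/-, then to the lower replicate number. The genes, lists and tests were chosen with earlier results of these data known. Named were all measured cycle genes, up to 4 genes of smallest p per further list, Pfn2 and markers with an unadjusted p under 0.05. Alb, Cps1, Cdkn1a, Cdkn1b, Rb1 and Rbl2 were named besides, after their values were seen. Also named outside this rule were the markers Krt7, Krt19, Epcam and Mzb1. Same-numbered arrays share an age, but their deviations from the group means correlated at -0.08, 0.16 and 0.02, so the numbers were not taken as pairs. The alternatives were other normalizations, filters on dim genes, the mean of a gene's rows, other variance models, array weights, a replicate block and each array left out.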

Additional observations from a re-analysis of the deposited data

How the results depend on the processing

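Of the 31 cycle genes, 0 passed the adjusted threshold under any alternative (smallest adjusted p = 0.30, without wild-type replicate 3). Under the alternatives other than leaving out an array, all 302 of 302 differences of single genes kept their sign. The filter at the median of all rows kept 24 of the 31 genes. When single arrays were left out, the sign did not turn in 22 genes, though the difference of Bub1 reached 0. The sign turned in 9 genes, all with a difference under 0.15. The ranges were -0.27 to 0.11 for Ccna2, -0.15 to 0.07 for Cdk4, -0.23 to 0.03 for Ccnd2, -0.23 to 0.02 for E2f1, -0.29 to 0.02 for Mcm2, -0.03 to 0.14 for Tyms, -0.05 to 0.23 for Birc5, -0.02 to 0.28 for Aurka and -0.24 to 0.07 for Cdc20.

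Cycle genes at an unadjusted p under 0.05 numbered 3 in the comparison reported, 6 with array weights, 4 with the replicate block, and 2 to 7 without single arrays, with 7 without wild-type replicate 3. Over all genes the adjusted threshold was passed by 2 genes with array weights, by 7 with the replicate block and by 0 to 6 without single arrays. The block changed no call among the cycle genes. The medians stayed within -0.23 to -0.13 for G1, -0.26 to -0.10 for S and -0.18 to -0.05 for G2/M over all alternatives. The causes of these shifts were not tested. No cycle gene can be called changed with 3 arrays per group, and the signal over background limits Bub1, Birc5, Top2a and Bub1b.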

Other observations

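Of 46 measured markers of liver cells other than hepatocytes, 4 had an unadjusted p under 0.05 and none passed over all genes, where 5.29% of all genes had such a p, so this count is not a result about the markers. The bile duct and progenitor gene Sox9 was higher in Pfn2-/-, at 7.15, 6.74 and 7.13 against 6.68, 5.97 and 6.62 in wild-type livers (0.58, SE 0.20, adjusted p = 0.895), with no overlap, and the difference was 0.36 without wild-type replicate 2. The chloride channel gene Cftr of bile ducts was also above wild type in all 3 arrays (0.33, SE 0.13), but at 2.88 to 3.09 in Pfn2-/- and 2.45 to 2.77 in wild type its row was near the median of the receptor genes. The other bile duct markers had differences of 0.02 for Krt7 (SE 0.18), 0.05 for Krt19 (SE 0.15) and -0.10 for Epcam (SE 0.17). The plasma cell gene Jchain was lower in Pfn2-/-, at 4.21, 4.93 and 3.98 against 5.13, 5.53 and 4.96 in wild-type livers (-0.83, SE 0.24, adjusted p = 0.789), with no overlap. The plasma cell marker Mzb1 differed by -0.07 (SE 0.12). The collagen gene Col3a1 lay at 5.64 to 5.68 in Pfn2-/- livers and at 5.75 to 6.08 in wild-type livers (-0.30, SE 0.13).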
